A study of Mus musculus with 24 samples.

Results

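BMP and Wnt signalling was followed through 10 genes in 4 tissues of Prxl2a knockout (KO) and wildtype (WT) mice. The genes were Gdf5, Bmp4, Bmp7, Bmp8b, Bmpr1a, Bmpr2, Apcdd1, Dixdc1, Axin2 and Sfrp1, which are 10 of the 19015 genes in the deposited table. Gdf5, Apcdd1 and Dixdc1 were taken because their KO and WT values differed in brown fat, so that contrast chose them, is given as a description and supports nothing about them. The other 7, made up of ligands, receptors, an inhibitor and a Wnt target, were set beside them in all tissues.

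The animals were female, aged 12 weeks, and lacked Prxl2a or were WT. The labels state neither how the allele was made nor the strain. Each mouse was perfused with PBS, and brain, liver, brown fat from the back (dorsal brown adipose tissue, BAT) and fat from the groin (inguinal adipose tissue, IAT) were frozen for RNA sequencing. The 8 groups of tissue and genotype held 3 libraries each. The labels speak of 3 mice per genotype, so the tissues probably share mice, but no label says which libraries do.

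Bone morphogenetic proteins (BMPs) are secreted dimers that bring together type I and type II receptor kinases, which phosphorylate SMAD proteins that act on target genes. Wnt proteins bind Frizzled and LRP receptors, which recruit Dishevelled and Axin, stabilise beta-catenin and switch on TCF/LEF targets. In adipose tissue BMP signals are known to favour commitment of precursors to fat cells, brown ones included, while Wnt signals are known to restrain fat cell formation.

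Start-site windows are printed for Dixdc1, whose BAT level differed most upward among the 10 genes, and for Axin2, the standard Wnt/beta-catenin target. Each runs from 250 bases before to 50 bases after a RefSeq start site in GRCm38.p6, is written 5′ to 3′ on the gene's strand, and carries its CpG dinucleotides in capitals. The upstream Dixdc1 window is chr9:50737686-50737985 (minus), the downstream one is chr9:50727935-50728234 (minus), and the Axin2 window is chr11:108920099-108920398 (plus).
Dixdc1 upstream start: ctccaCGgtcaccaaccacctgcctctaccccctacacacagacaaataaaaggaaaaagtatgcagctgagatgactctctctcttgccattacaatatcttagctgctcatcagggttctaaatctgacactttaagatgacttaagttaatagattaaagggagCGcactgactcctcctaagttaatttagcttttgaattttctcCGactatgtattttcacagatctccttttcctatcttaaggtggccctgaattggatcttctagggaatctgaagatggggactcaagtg
Dixdc1 downstream start: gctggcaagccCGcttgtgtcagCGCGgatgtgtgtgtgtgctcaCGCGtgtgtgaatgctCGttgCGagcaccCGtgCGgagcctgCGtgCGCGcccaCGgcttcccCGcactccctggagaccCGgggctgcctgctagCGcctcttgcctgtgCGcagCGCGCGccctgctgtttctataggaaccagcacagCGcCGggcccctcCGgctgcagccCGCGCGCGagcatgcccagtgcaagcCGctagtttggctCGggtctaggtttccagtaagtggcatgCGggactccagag
Axin2: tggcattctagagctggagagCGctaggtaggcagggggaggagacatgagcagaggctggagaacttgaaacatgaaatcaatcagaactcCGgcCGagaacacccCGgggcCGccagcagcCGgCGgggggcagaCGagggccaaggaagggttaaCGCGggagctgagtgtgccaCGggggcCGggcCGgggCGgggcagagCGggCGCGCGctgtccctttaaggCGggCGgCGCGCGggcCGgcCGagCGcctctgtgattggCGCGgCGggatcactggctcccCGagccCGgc

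The Dixdc1 windows differ in base composition. The upstream one is 41.7% G or C with 3 CpG dinucleotides, and the downstream one is 67.7% G or C with 30. The Axin2 window is 70.0% G or C with 31 CpG dinucleotides, against medians of 52.7% and 7 over 32851 RefSeq windows of the same 300 bases. The TCF/LEF letters CTTTGAT and CTTTGTT, the BMP-responsive box GGCGCC and the SMAD box GTCTAGAC were searched on both strands in the windows of 6 of the 10 genes. Of all 32851 windows, 3.73% held CTTTGAT, 5.85% CTTTGTT, 11.9% GGCGCC and 0.213% GTCTAGAC. GGCGCC stood in the windows of Bmpr1a and Bmpr2, and none of these letters stood in the windows of Dixdc1, Axin2, Bmp4 or Bmp8b.

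Libraries held 12327459 to 18257788 counts. Prxl2a was lower in every KO library than in any WT library of its tissue, with log2 fold changes of −4.58 in IAT, −4.45 in BAT and −4.17 in brain, and of −5.65 in the liver libraries. In IAT alone this did not pass in edgeR (adjusted p = 0.0912), where replicates spread most. Each tissue carried its defining markers: the 7 brown adipocyte markers summed to at least 12627 TPM, a measure of transcripts scaled to gene length and library total, in every BAT library, against at most 201 TPM in IAT. White adipocyte markers summed to at least 23730 TPM in IAT and to 37410 to 44506 TPM in BAT, so the brown markers, not these, set the 2 fats apart. Neuron markers summed to at least 5897 TPM in brain and hepatocyte markers to at least 113150 TPM in liver. Single libraries held transcripts of other cells. The 9 lymphocyte markers summed to 1885 and 933 TPM in IAT KO replicates 1 and 3, against 3.40 TPM in KO replicate 2 and at most 14.03 TPM in the WT libraries. Skeletal muscle markers summed to 1544 and 5247 TPM in IAT WT replicates 1 and 2 and to 2061 TPM in BAT WT replicate 1. Replicate correlations of log2 expression reached down to 0.863 in IAT KO libraries and were at least 0.956 in every other group.

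The genes lie on 8 chromosomes of build GRCm38.p6. Gdf5 (chr2:155941023-155945367, minus strand) and Bmp7 (chr2:172868012-172940321, minus) share chromosome 2, and Bmp8b lies at chr4:123104308-123126094 (plus). Bmp4 (chr14:46383525-46390669, minus) and Bmpr1a (chr14:34411061-34503336, minus) lie on the chromosome of Prxl2a itself (chr14:40993735-41013833), 5.37 Mb and 6.49 Mb away from it. Bmpr2 lies at chr1:59764279-59878081 (plus), Sfrp1 at chr8:23411383-23449632 (plus) and Apcdd1 at chr18:62922327-62953815 (plus). Dixdc1 lies at chr9:50662752-50739602 (minus) and Axin2 at chr11:108917828-108950783 (plus). Annotated genes on the opposite strand overlap Gdf5, Bmp4, Bmpr1a and Axin2, and since no source states whether counting used strand, reads of the overlapping genes cannot be told apart.

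Levels were next compared between WT tissues. WT libraries of BAT are one side of the contrast that chose Gdf5, Apcdd1 and Dixdc1, so for these 3 genes the BAT level is a description. For Apcdd1 and Dixdc1 an order is tested only among IAT, brain and liver. Gdf5 did not reach the low-count filter's level in brain or liver, so its order is a description too. Each of the other 7 genes differed between the tissues (edgeR F-test over 12 WT libraries, highest Benjamini-Hochberg adjusted p = 0.00265), as did 96.1% of the genes tested. Bmp8b, 1 of these 7, reached the low-count filter's level in WT libraries of BAT alone, so its difference is a description. An order between 2 tissues is stated below only where it had one sign and an adjusted p under 0.05 with TMM scaling, with RLE scaling and on log2(TPM + 0.1). Of all genes, TMM and edgeR called 57% between IAT and BAT, 80% between IAT and brain, 69.7% between IAT and liver, 79.2% between BAT and brain, 65.7% between BAT and liver and 82.2% between brain and liver. The scaling mattered because TPM moved the median of all genes by up to 1.63 on the log2 scale, between brain and liver. Values are mean TPM ± SD over 3 libraries.

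Among the ligands, Gdf5, a BMP family member known from joint formation, averaged 1.08 ± 0.51 in IAT, 0.297 ± 0.11 in brain and 0.0133 ± 0.023 in liver. Every step of this order held, but it is a description. No brain or liver library reached the low-count filter's level in its tissue. Gdf5 had 13 reads over WT libraries of brain and 1 over those of liver. Its mean in BAT was 8.79 ± 0.42. Bmp8b, which brown fat is known to secrete, averaged 1.57 ± 0.75 in BAT. The other 3 tissues (0.16 ± 0.16 in IAT, 0.123 ± 0.087 in brain and 0.0533 ± 0.021 in liver) were not told apart. It reached the low-count filter's level in WT libraries of BAT alone, so its higher level there is a description. That level is also uncertain, because Oxct2b and Ppie overlap the gene. Bmp7, known in mice to promote brown fat formation, had another order: brain (7.31 ± 1.76) and IAT (4.08 ± 1.70) were each above liver (0.657 ± 0.34) and BAT (0.283 ± 0.23). For Bmp4, tied to white fat cell commitment, IAT (3.44 ± 0.94) and liver (2.42 ± 0.41) were above BAT (1.36 ± 0.63), and no order with brain (3.89 ± 0.39) held.

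Both receptors were expressed in every tissue. Bmpr1a, a type I receptor, was higher in IAT (25.9 ± 0.31) than in BAT (13.1 ± 0.87) and liver (9.21 ± 0.28), with no order held for brain (33.3 ± 4.0). Bmpr2, the type II receptor, was highest in brain (53.5 ± 1.24), while IAT (13.4 ± 0.29) and BAT (11.6 ± 0.029) were each above liver (4.91 ± 0.37) and not ordered between themselves.

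Apcdd1, a membrane glycoprotein that inhibits Wnt signalling, was ordered IAT (79.0 ± 6.67), brain (19.6 ± 0.74) and liver (0.01 ± 0.017). No liver library reached the low-count filter's level for Apcdd1, and its mean in BAT was 7.96 ± 2.83. Sfrp1, a secreted Frizzled-related inhibitor, was higher in brain (7.77 ± 4.57) and IAT (6.35 ± 3.39) than in BAT (1.58 ± 0.50), and higher in BAT than in liver (0.183 ± 0.032). Dixdc1, an intracellular DIX-domain protein that works with Dishevelled and Axin, was higher in brain (58.9 ± 7.11) than in IAT (8.55 ± 5.28) and liver (4.32 ± 0.33), which were not told apart, and averaged 4.62 ± 0.55 in BAT. Axin2, a feedback inhibitor induced by Wnt, was highest in brain (15.7 ± 0.84), with IAT (4.86 ± 0.23) and BAT (5.02 ± 0.80) above liver (1.56 ± 0.31).

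**Figure D1:**
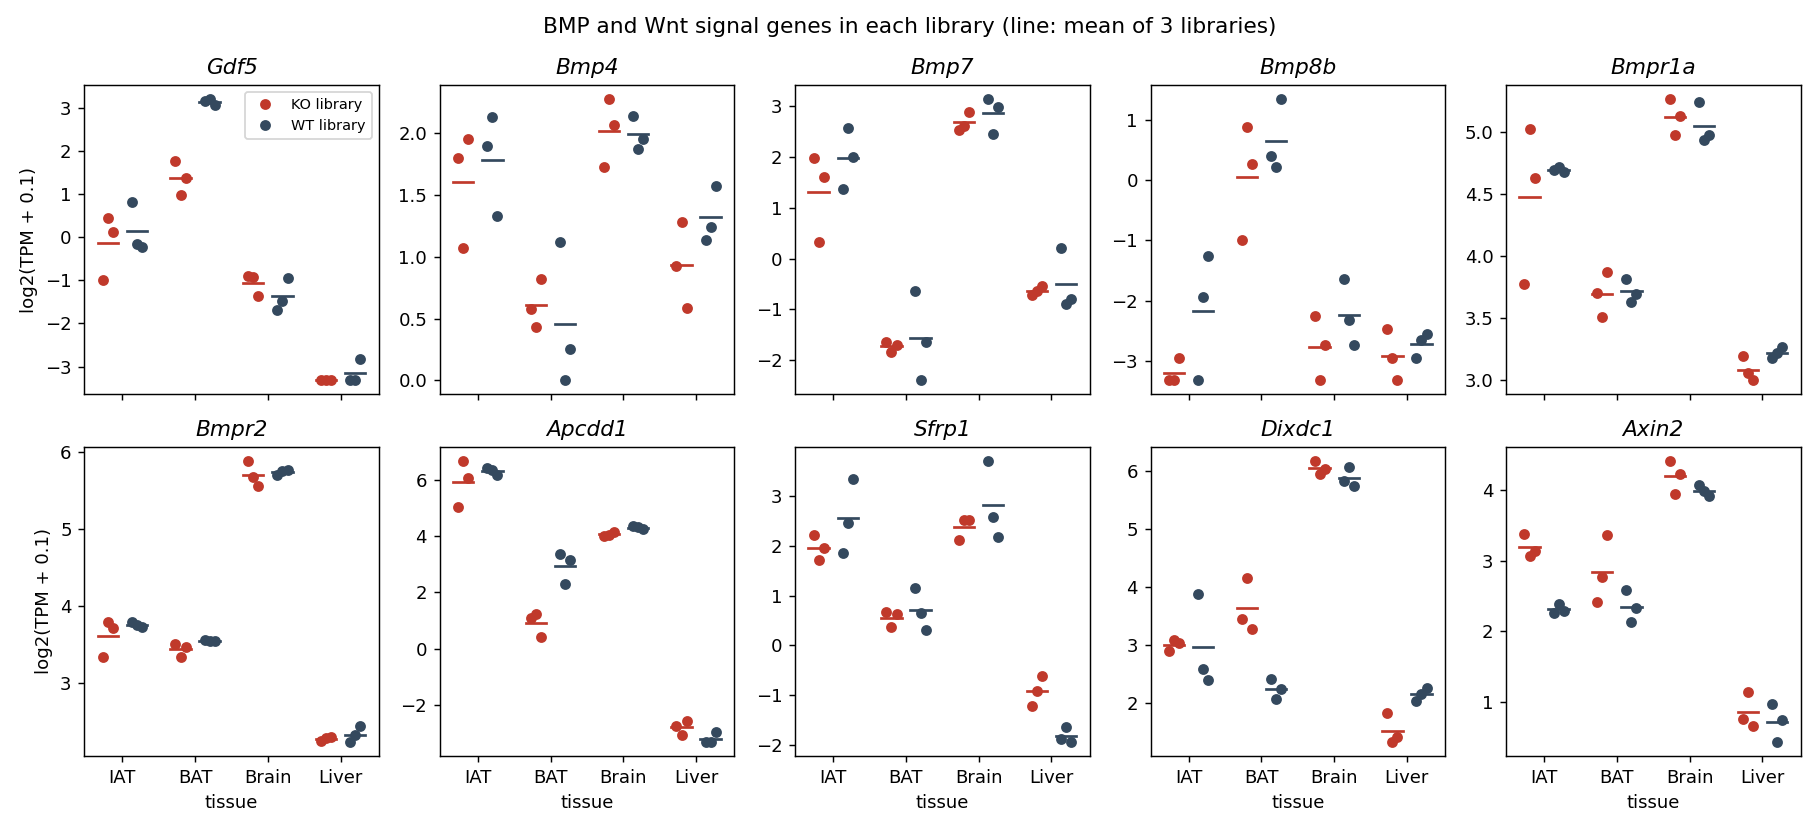
Level of each of the 10 genes in every library, as log2(TPM + 0.1), with KO libraries (red) left of WT libraries (blue) in each tissue and a line at the mean of 3 libraries. KO and WT points stand apart for Gdf5, Apcdd1 and Dixdc1 in BAT, for Axin2 in IAT and for Dixdc1 and Sfrp1 in liver, among others.

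The genes whose WT pattern was most like those of the 3 genes chosen on BAT were found by Pearson's r of log2(TPM + 1) over the 12 WT libraries, among 14532 genes whose mean was at least 1 TPM. For Gdf5 these were Ndufab1 (r = 0.998), Ndufa1 (0.996) and Ndufb9 (0.995), subunits of mitochondrial complex I. For Apcdd1 they were Slc7a10 (0.997), an amino acid transporter, Chst12 (0.992) and Sgce (0.992). For Dixdc1 they were Dennd4a (0.990), Ccdc65 (0.989) and Ache (0.989), which encodes acetylcholinesterase. The 12 points fall into 4 tissues, so each r describes a tissue profile.

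In BAT, Gdf5 and Apcdd1 were lower and Dixdc1 was higher in KO mice than in WT mice, and the other 6 genes measured there overlapped between genotypes. Per-library levels below are CPM, which are counts scaled to library size with TMM factors within the tissue. Gdf5 stood at 5.18, 3.00 and 4.10 CPM in KO libraries, against 13.1, 13.8 and 12.4 CPM in WT libraries. No KO library reached the lowest WT library, with a log2 fold change of −1.67 (SE 0.21), from 37 to 63 reads in KO libraries and 158 to 177 reads in WT libraries. Fewer cells of a type and less RNA per cell cannot be told apart in whole tissue.

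Apcdd1 stood at 4.93, 5.60 and 3.12 CPM in KO libraries of BAT, against 23.3, 11.3 and 20.4 CPM in WT libraries. The groups were apart, although WT replicate 2 was well below the other WT libraries, and the log2 fold change was −2.01 (SE 0.32). Dixdc1 ran the other way, at 40.9, 69.1 and 38.6 CPM in KO libraries and 19.2, 15.3 and 16.8 CPM in WT libraries, a log2 fold change of 1.54 (SE 0.23). KO replicate 2 was the highest of the 6 libraries, and the lowest KO library was still above all WT libraries.

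The remaining genes of BAT gave smaller values. Axin2 stood at 16.1, 21.4 and 33.0 CPM in KO libraries, against 16.5, 12.9 and 14.4 CPM in WT libraries (log2 fold change 0.69, SE 0.25). KO replicates 2 and 3 were above all WT libraries and KO replicate 1 was below the highest of them. With single libraries left out its value ran from 0.36, without KO replicate 3, to 0.89, without KO replicate 1. Sfrp1 stood at 4.69, 3.90 and 4.76 CPM in KO libraries, against 6.34, 4.54 and 3.44 CPM in WT libraries (−0.10, SE 0.26). Bmp8b stood at 0.82, 3.74 and 2.38 CPM in KO libraries and 2.35, 2.19 and 4.78 CPM in WT libraries (−0.42, SE 0.53). Its value is uncertain, because Oxct2b and Ppie overlap it, Bmp8a is a close copy, and whether counting used strand is not given. Bmp4 (0.21, SE 0.37), Bmpr1a (0.09, SE 0.11) and Bmpr2 (−0.01, SE 0.08) differed by about their standard error or less. Bmp7 did not reach the low-count filter, with 20 reads summed over KO libraries and 27 over WT libraries.

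In numbers, 9 of the 10 genes passed the filter in BAT. As the background of this contrast, the edgeR quasi-likelihood test called 0.54% of all 12588 genes at an adjusted p under 0.05, 0.389% higher and 0.151% lower in KO, and the groups did not overlap for 25.6%. Gdf5, Apcdd1 and Dixdc1 stand beyond both by their choice, so nothing is read from their count. With single libraries left out they ran from −1.88 to −1.50 for Gdf5, −2.26 to −1.80 for Apcdd1 and 1.21 to 1.69 for Dixdc1. The same ranges held both signs for Bmp4 (−0.030 to 0.66), Bmp8b (−0.95 to 0.029), Bmpr1a (−0.022 to 0.17), Bmpr2 (−0.036 to 0.034) and Sfrp1 (−0.29 to 0.15).

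Fibroblast, lymphocyte and hepatocyte markers each summed lower in every KO library of BAT than in any WT library. Lymphocyte markers summed to 3.25 to 4.66 TPM in KO and 5.82 to 7.37 TPM in WT libraries. Hepatocyte markers summed to 117 to 198 TPM in KO and 210 to 348 TPM in WT libraries. The 10 fibroblast markers summed to 1016, 858 and 992 TPM in KO libraries, against 2329, 1141 and 1242 TPM in WT libraries, without overlap. All 10 were lower in KO on average (median log2 fold change −0.73), and 0 of the 10 passed the test. None was at 0 in all libraries of a genotype. Brown adipocyte markers overlapped, at 14498, 14112 and 16294 TPM in KO libraries and 13585, 15968 and 12627 TPM in WT libraries, although 7 of 7 had positive log2 fold changes (median 0.30). Macrophage markers (median −0.54) and skeletal muscle markers (median −2.72) were negative in 7 of 7 each, and both sums were highest in WT replicate 1, at 228 and 2061 TPM. In edgeR 0 of 7 passed in each of these lists. The part of stromal, lymphocyte, hepatocyte, macrophage, muscle and brown fat RNA in the levels of Gdf5, Apcdd1 and Dixdc1 was not tested.

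**Figure D2:**
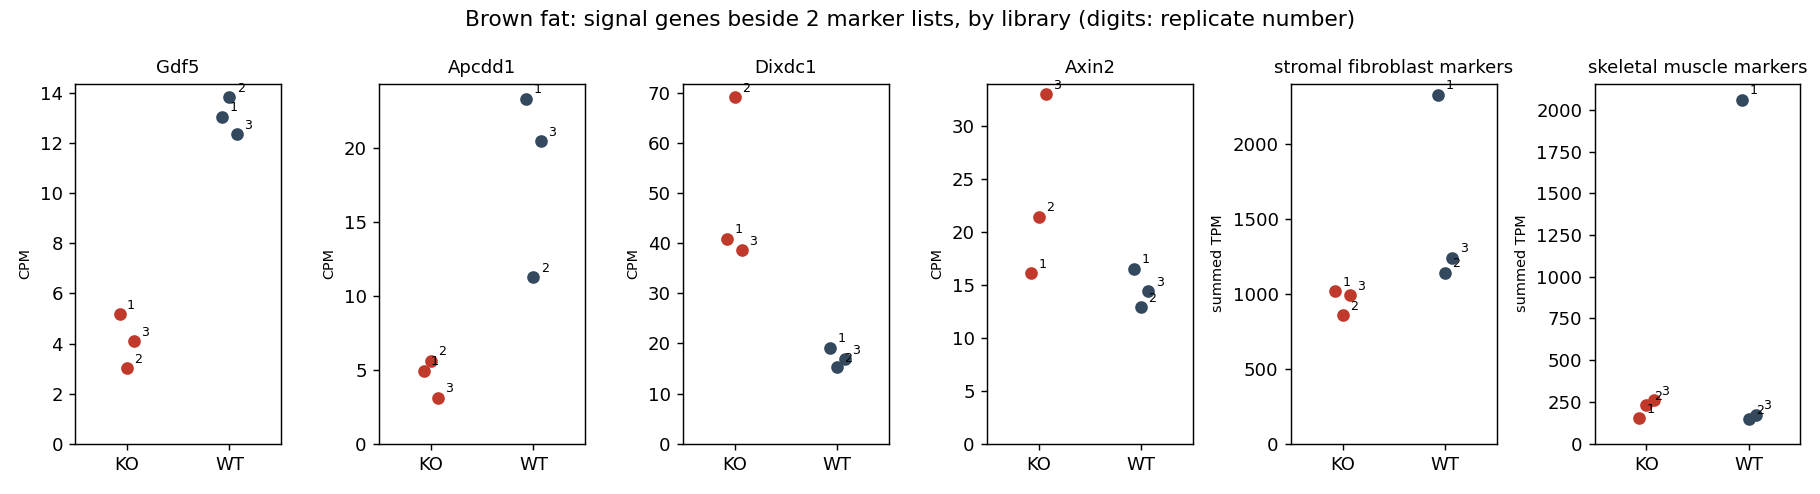
Values of each BAT library, with KO left of WT and the replicate number beside each point, for 4 genes in CPM and for summed fibroblast and skeletal muscle markers in TPM. Gdf5, Apcdd1 and fibroblast markers are lower in all 3 KO libraries, Dixdc1 is higher in all 3, and only WT replicate 1 is rich in muscle transcripts.

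The same 3 genes were then read in the tissues that had no part in the choice. Gdf5 in IAT stood at 0.51, 1.83 and 1.27 CPM in KO libraries, against 2.36, 1.10 and 1.08 CPM in WT libraries. The groups overlapped, and the log2 fold change of −0.33 (95% interval −1.68 to 1.02, edgeR adjusted p = 0.770) turned positive without KO replicate 1 (0.04) or WT replicate 1 (0.14). In brain Gdf5 had 16 reads over KO libraries and 13 over WT libraries, below the filter. In liver it had 0 reads over KO libraries and 1 over WT libraries, where 3 reads in a KO library would be 0.164 to 0.170 CPM.

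Apcdd1 in IAT stood at 64.2, 226 and 132 CPM in KO libraries, against 184, 173 and 157 CPM in WT libraries (log2 fold change −0.29, 95% interval −1.30 to 0.73, edgeR adjusted p = 0.734). The KO libraries spread to both sides of the WT range. Their order was that of white adipocyte markers, which summed to 23730, 61027 and 42906 TPM in KO libraries, against 48530, 42400 and 40155 TPM in WT libraries, and the reverse of their lymphocyte markers. Without KO replicate 1 the value was 0.061, and the part of the other cells in it was not tested.

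In brain Apcdd1 stood at 21.4, 22.2 and 23.7 CPM in KO libraries, against 26.8, 27.4 and 25.1 CPM in WT libraries. All KO libraries were below all WT libraries by a small step, a log2 fold change of −0.24 (95% interval −0.46 to −0.02, unadjusted p = 0.0356, edgeR adjusted p = 0.749). In liver it had 6 reads over KO libraries and 1 over WT libraries and was not tested.

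Dixdc1 in liver was lower in KO than in WT libraries, the opposite of BAT. It stood at 12.8, 8.91 and 9.67 CPM in KO libraries, against 14.2, 14.7 and 16.5 CPM in WT libraries. The groups did not overlap, but the log2 fold change of −0.53 (95% interval −0.87 to −0.20, unadjusted p = 0.00560) did not pass in edgeR (adjusted p = 0.130) or DESeq2 (adjusted p = 0.0869). Fibroblast markers in the same libraries summed to 166, 231 and 176 TPM in KO, against 232, 341 and 286 TPM in WT, with 8 of 8 tested lower and 1 called. Hepatic stellate markers summed to 81.1, 174 and 125 TPM in KO, against 155, 215 and 166 TPM in WT, and their part in the Dixdc1 value was not tested.

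Elsewhere Dixdc1 overlapped between genotypes. In IAT it stood at 22.7, 29.4 and 25.6 CPM in KO libraries, against 50.9, 20.2 and 18.1 CPM in WT libraries, where WT replicate 1 was the highest. Muscle markers were highest in another library, WT replicate 2 (5247 TPM, against 1544 TPM in WT replicate 1). Brown adipocyte markers were highest in WT replicate 1, at 201 TPM, against 182 and 63.7 TPM in WT replicates 2 and 3. The part of these cells in the Dixdc1 value was not tested. The log2 fold change of −0.20 (95% interval −1.19 to 0.80, edgeR adjusted p = 0.813) became 0.43 without WT replicate 1 and 0.050 on log2(TPM + 0.1). In brain it stood at 156, 136 and 142 CPM in KO libraries, against 122, 147 and 114 CPM in WT libraries (0.18, 95% interval −0.09 to 0.45, edgeR adjusted p = 0.789).

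Axin2, the Wnt target, had a positive log2 fold change in 4 of 4 tissues. In IAT it stood at 25.7, 23.7 and 22.1 CPM in KO libraries, against 12.97, 13.8 and 13.3 CPM in WT libraries. The genotypes were well apart and the libraries within each were close. The log2 fold change was 0.83 (95% interval 0.49 to 1.18, unadjusted p = 8.63e-04), with an adjusted p of 0.175 in edgeR, which called 0 of 14097 genes in IAT, and 1.28e-04 in DESeq2, which called 7.11%. Axin2 passed in edgeR when KO replicate 2 was left out (adjusted p = 0.0261), where edgeR called 12.1% of all genes. It also passed when all 24 libraries shared a fit (edgeR adjusted p = 0.0125), where the share of all genes was not counted. Over all alternatives the value stayed between 0.77 and 0.89, while the adjusted p ran from 1.28e-04 to 0.669. Without KO replicates 1 and 3, which carry lymphocyte transcripts, it was 0.83.

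In brain Axin2 stood at 35.9, 26.5 and 32.1 CPM in KO libraries, against 28.0, 27.3 and 25.3 CPM in WT libraries (0.23, 95% interval −0.06 to 0.53, edgeR adjusted p = 0.763). In liver it stood at 4.79, 6.15 and 4.58 CPM in KO libraries, against 5.49, 3.35 and 4.42 CPM in WT libraries (0.23, 95% interval −0.25 to 0.71, edgeR adjusted p = 0.642). Both tissues overlapped.

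Sfrp1 was higher in every KO liver than in any WT liver, at 1.03, 1.32 and 1.70 CPM in KO libraries and 0.520, 0.619 and 0.466 CPM in WT libraries. It passed the low-count filter through the KO libraries, since 1 of the 3 WT libraries reached the filter's level of 0.566 CPM, so the separation is a description. These are low levels, with 18, 23 and 30 reads in KO libraries and 9, 12 and 8 reads in WT libraries. The log2 fold change was 1.32 (SE 0.32), and it did not pass in edgeR (adjusted p = 0.0983) or DESeq2 (adjusted p = 0.141). On log2(TPM + 1) it was 0.28, since the pseudocount exceeds the level. The 8 fibroblast and 6 stellate markers tested in the same libraries all had negative values, and the part of these cells in the Sfrp1 value was not tested.

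In IAT and brain Sfrp1 overlapped. It stood at 11.6, 9.28 and 9.76 CPM in KO libraries of IAT, against 10.1, 15.1 and 28.9 CPM in WT libraries (−0.82, 95% interval −1.76 to 0.12, edgeR adjusted p = 0.352). It stood at 7.47, 10.1 and 9.98 CPM in KO libraries of brain, against 22.6, 10.7 and 7.75 CPM in WT libraries (−0.57, 95% interval −1.43 to 0.28, edgeR adjusted p = 0.789). WT replicate 1, the high brain library, also had the highest summed striatum markers, at 1474 TPM, against 196 to 1002 TPM in KO libraries. WT replicate 2 had nearly as much, at 1222 TPM, with Sfrp1 at 10.7 CPM, and the part of these cells in the value was not tested.

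The ligands and receptors gave no called difference in IAT, brain or liver. Bmp4 had log2 fold changes of −0.27 in IAT, 0.05 in brain and −0.30 in liver, with 95% intervals that reached from −1.06 to 0.59 across the 3 tissues. Bmp7 had −0.73 in IAT (95% interval −1.87 to 0.41), −0.20 in brain and −0.18 in liver. Bmp8b had at most 10 reads in any library of these tissues and was not tested.

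Bmpr1a in IAT stood at 44.3, 121 and 81.7 CPM in KO libraries, against 94.2, 93.5 and 93.4 CPM in WT libraries. The WT libraries were nearly equal and the KO libraries spread in the same order as Apcdd1 did. The log2 fold change was −0.19 in IAT (95% interval −1.01 to 0.63) and 0.11 without KO replicate 1. Brain gave 0.08 (95% interval −0.18 to 0.33) and liver −0.05 (−0.24 to 0.15). Bmpr2 gave −0.20 in IAT (−0.64 to 0.24), −0.01 in brain (−0.26 to 0.23) and 0.04 in liver (−0.15 to 0.23), and a change of 1 log2 unit lay outside all 3 intervals of Bmpr2.

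Of the genes tested, 0 of 9 passed in IAT, 0 of 8 in brain and 0 of 7 in liver in edgeR, where 0%, 0.0487% and 1.11% of all genes did. At an unadjusted p under 0.05 there were 1, 1 and 2, against 15.8%, 6.58% and 16.1% of all genes. Sfrp1, with its one-sided filter, is among the 2 in liver, so that count is a description. DESeq2 called Axin2 in IAT and none in brain or liver, where it called 0.289% and 2.79% of all genes. The groups did not overlap for 1 of 9 in IAT, 1 of 8 in brain and 2 of 7 in liver, with Sfrp1 and its one-sided filter among these, and for 18.5%, 12.5% and 21.6% of all genes. The median log2 fold change of the tested genes was −0.27 in IAT, 0.02 in brain and −0.05 in liver, with medians of all genes of 0.02, −0.00 and −0.00.

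**Figure D3:**
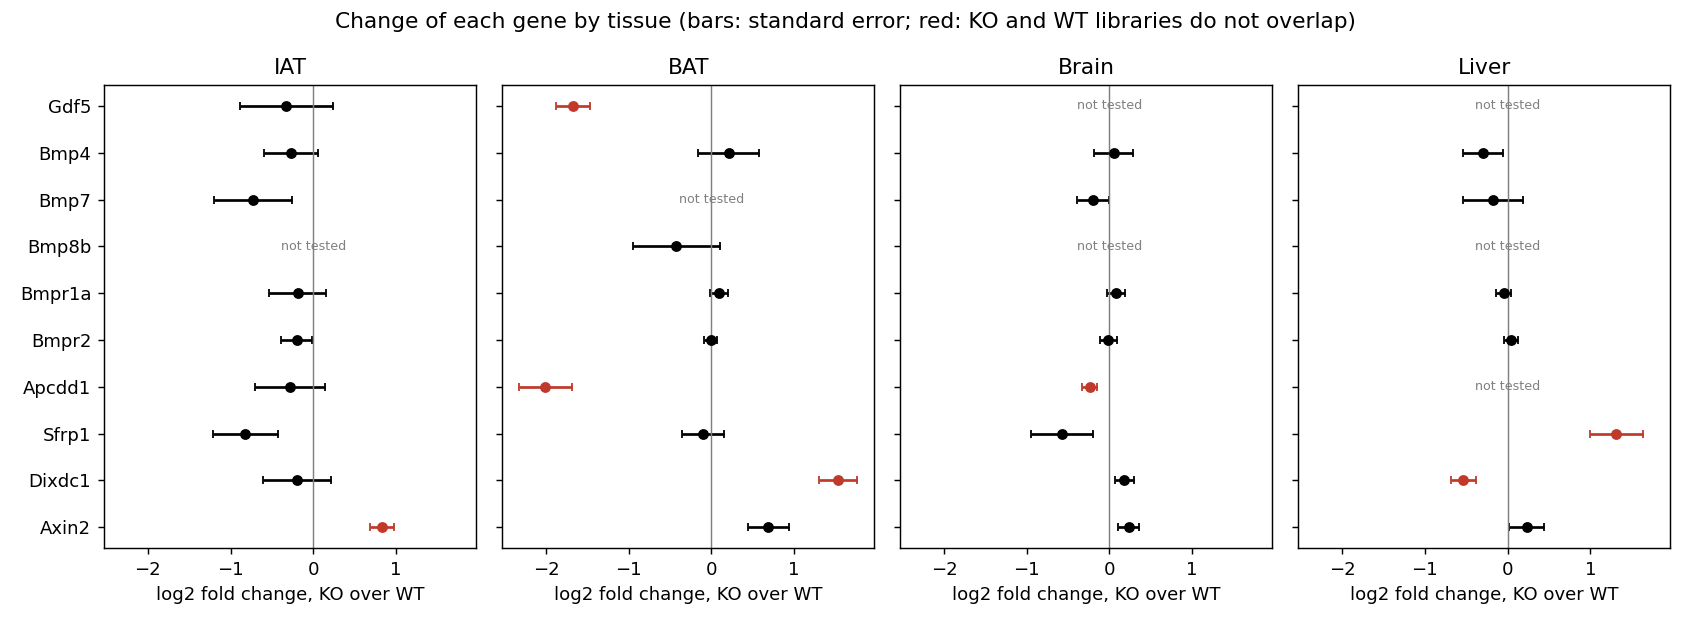
Log2 fold change of each gene, KO over WT, by tissue, with bars of 1 standard error and red points where KO and WT libraries do not overlap. Gdf5 and Apcdd1 lie left of 0 and Dixdc1 right of 0 in BAT, and Axin2 lies right of 0 in all 4 tissues.

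Whether the genotype difference itself varied between IAT, brain and liver was tested in 18 libraries as an interaction of genotype and tissue. None of the 9 genes tested passed (edgeR, 0.0996% of all genes passed). Sfrp1 had the smallest p (unadjusted p = 0.00833, adjusted p = 0.164), and DESeq2 called it, where the share of all genes was not counted. Axin2 followed (unadjusted p = 0.0275, adjusted p = 0.240), and Dixdc1 had an adjusted p of 0.558. BAT was left out, since its contrast chose genes.

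The rest of both pathways was read from lists of 50 BMP genes and 90 Wnt genes in the table, without the 10 genes above. In BAT 36 BMP genes were tested and none passed in edgeR, 5 had an unadjusted p under 0.05 (18.5% of all genes), and DESeq2 called Rgma (3.68% of all genes). Rgma passed in edgeR without KO replicate 1, where 0.735% of all genes did. Of these 36, 26 were lower and 10 higher, with a median log2 fold change of −0.13, against −0.01 over all genes. Rgma, a BMP co-receptor, stood at 19.3, 11.5 and 14.7 CPM in KO libraries of BAT, against 32.2, 29.4 and 24.7 CPM in WT libraries (−0.92, SE 0.19, edgeR adjusted p = 0.0848). The type I receptor Acvr1 had −0.37 (SE 0.11, edgeR adjusted p = 0.171). All 7 BMP receptors and co-receptors tested in BAT beside Bmpr1a and Bmpr2, with Rgma and Acvr1 among them, had negative values, and 0 of the 7 passed in edgeR. This was not particular to BAT, as 9 of 9 were negative in brain, 6 of 8 in IAT and 5 of 7 in liver.

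In BAT 53 Wnt genes were tested, none passed in edgeR or DESeq2, and 7 had an unadjusted p under 0.05 (18.5% of all genes). Their median was −0.013, against −0.0058 over all genes. Ror2, a receptor for non-canonical Wnts that reached the low-count filter in WT libraries alone, stood at 0.66, 0.41 and 0.57 CPM in KO libraries, against 1.64, 1.49 and 1.17 CPM in WT libraries (−1.38, SE 0.33, edgeR adjusted p = 0.116). Lrp6, a Wnt co-receptor, had −0.37 (SE 0.09, edgeR adjusted p = 0.123). The 6 other Wnt targets tested had a median of 0.10.

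In liver edgeR called 1 of 58 Wnt genes, and 1.11% of all genes. Rspo1, a secreted protein that strengthens Wnt signals, stood at 0.11, 0.23 and 0.11 CPM in KO libraries, against 0.92, 1.39 and 0.82 CPM in WT libraries. Its log2 fold change was −2.74 (SE 0.46, edgeR adjusted p = 0.0307). Rspo1 passed the low-count filter through the WT libraries alone, so its separation and its call are a description. It was lost when any 1 of the 6 libraries was left out, Myc passed in its place without WT replicate 1, and 0 Wnt genes passed with a filter of 1 CPM in 3 libraries. None of the 38 BMP genes passed in edgeR, and 9 had an unadjusted p under 0.05 (16.1% of all genes). DESeq2 called 2 of them, Fstl1 and Smoc2, and 2.79% of all genes. Without KO replicate 2 edgeR called Fstl1, and 0.767% of all genes. The extracellular modulator Smoc2 had −1.63 (SE 0.31, edgeR adjusted p = 0.0505) and the BMP antagonist Nbl1 −1.42 (SE 0.33, edgeR adjusted p = 0.0891), in the livers whose fibroblast markers were lower.

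IAT gave no call among 40 BMP and 70 Wnt genes in edgeR, with 9 and 15 at an unadjusted p under 0.05 (15.8% of all genes). DESeq2 called 8 and 7, and 7.11% of all genes. Nbl1 (−1.36, SE 0.23, edgeR adjusted p = 0.175), Smoc2 (−1.35, SE 0.27, 0.211) and the ligands Wnt2 (−1.58, SE 0.28, 0.175) and Wnt9a (−1.32, SE 0.31, 0.224) were lower in every KO library. Fibroblast markers in IAT summed to 5193, 9480 and 7378 TPM in KO libraries, against 9746, 12789 and 11404 TPM in WT libraries, also without overlap, and their part was not tested. Without KO replicate 2, which leaves the KO libraries with lymphocyte transcripts, edgeR called 6 BMP and 7 Wnt genes and 12.1% of all genes. Without WT replicate 1 it called 1 BMP gene (Nbl1) and 2 Wnt genes (Rspo2 and Sfrp4), and 1.32% of all genes. Tcf7, a TCF/LEF factor also made by T cells and named after its values were seen, averaged 155 ± 153 CPM in KO libraries and 3.02 ± 0.71 CPM in WT libraries, the log2 fold change of 5.68 beside lymphocyte markers in KO replicates 1 and 3.

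Brain gave no call among 43 BMP and 76 Wnt genes in edgeR, with 4 and 7 at an unadjusted p under 0.05 (6.58% of all genes). DESeq2 called Wnt7b, and 0.289% of all genes. Without WT replicate 2 edgeR also called Wnt7b, and 0.0619% of all genes. Wnt7b, a ligand of neurons, averaged 24.7 ± 0.73 CPM in KO libraries and 47.7 ± 10.5 CPM in WT libraries (−0.95, SE 0.16, edgeR adjusted p = 0.311). Wnt7a had −0.71 (SE 0.23, 0.737), the ligand Bmp3 −0.61 (SE 0.14, 0.562) and the antagonist Fst 0.90 (SE 0.23, 0.681). Choroid plexus and striatum markers differed widely between single brain libraries, from 16.0 to 636 TPM for choroid plexus in KO and from 119 to 2196 TPM in WT, and their part was not tested.

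**Figure D4:**
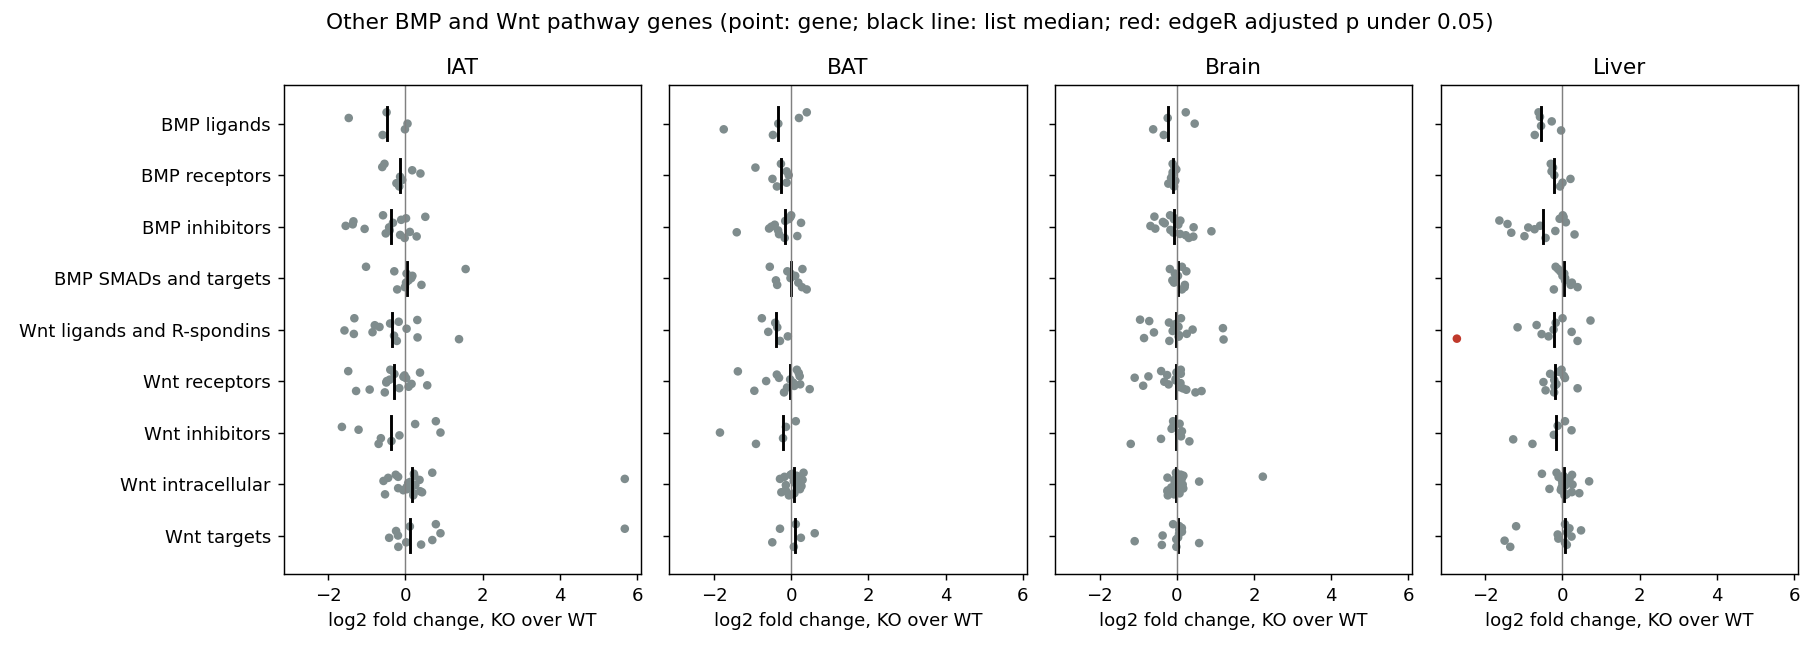
Log2 fold change, KO over WT, of the other BMP and Wnt genes in each tissue, 1 point per gene, with a black line at each list's median and red where the edgeR adjusted p is under 0.05. A single point is red, Rspo1 in liver at −2.74, which passed the low-count filter through the WT libraries alone. List medians in brain run from −0.24 (BMP ligands) to 0.03 (Wnt targets).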

How the data were processed

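RNA-seq libraries of 4 tissues, 3 per genotype and tissue, were analysed from 1 deposited table of 19015 genes. Its expected counts are estimates per gene that the authors deposited without normalisation, as the file headers show. Its TPM values were scaled by the authors to gene length and library total, per the file headers. The submitters' processing notes name RSEM 1.3.1, Bowtie2 2.3.4.3, GRCm38.p6 as the build and DESeq2 1.4.5. Annotation, filters and any use of strand in counting are not stated. Another 48 per-sample columns were left aside. RefSeq held 18958 of the gene identifiers.

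Expected counts were rounded. Each tissue was fitted on its own 6 libraries in edgeR 4.0.16 (R 4.3.3) with TMM, filterByExpr and the quasi-likelihood test, and p-values were adjusted by Benjamini-Hochberg over all genes tested and called under 0.05. Tissues were compared in the 12 WT libraries, and genotype by tissue in 18 libraries of IAT, brain and liver. Alternatives were DESeq2 1.42.0, RLE scaling, no filter or 1 CPM in 3 libraries, limma 3.58.1 (voom, and trend on TPM), a single fit of all 24 libraries, a block for replicate number, and leaving out single libraries or the IAT libraries with foreign transcripts. The code was tested on simulated data. Figures were drawn with matplotlib 3.10.9.

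The 10 genes and the pathway and marker lists were chosen with earlier results of these data known. Text names the 10 genes, Prxl2a, pathway genes that passed in a tissue, otherwise the 2 with the smallest unadjusted p per pathway, and the 3 genes most alike in WT for the 3 genes chosen on BAT. Exceptions are named as such. P-values measure the spread between 3 libraries per group.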

Additional observations from a re-analysis of the deposited data

Results flagged for a closer look

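The genotype difference of Dixdc1 had opposite signs in 2 tissues, since every KO library of BAT was above every WT library while every KO library of liver was below every WT library. The groups did not overlap for 25.6% of all genes in BAT and 21.6% in liver. In liver Dixdc1 did not pass in edgeR (adjusted p = 0.130), and its separation in BAT is a description. Its log2 fold changes, 1.54 in BAT and −0.53 in liver, differ by 2.07, and this difference was not tested because BAT chose the gene.

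Wnt9a, a Wnt ligand, was above WT in every KO library of liver, at 0.80, 0.86 and 0.73 CPM in KO and 0.46, 0.72 and 0.23 CPM in WT. It was below WT in every KO library of IAT, at 1.36, 1.96 and 1.67 CPM in KO and 4.13, 5.37 and 2.99 CPM in WT. In liver Wnt9a passed the low-count filter through the KO libraries, since 1 of the 3 WT libraries reached the filter's level of 0.566 CPM. Its separation there is a description, with an edgeR adjusted p of 0.426. The groups did not overlap for 21.6% of all genes in liver and 18.5% in IAT. The log2 fold changes differ by 2.05, which was not tested.

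Rspo1 was above WT in every KO library of brain, at 6.60, 7.92 and 11.4 CPM in KO and 3.21, 6.60 and 1.33 CPM in WT, where the lowest KO and the highest WT library are nearly equal. It was below WT in every KO library of liver, where it passed the low-count filter through the WT libraries alone. Its separation in liver is therefore a description. The groups did not overlap for 12.5% of all genes in brain and 21.6% in liver. The log2 fold changes of Rspo1 differ by 3.95, which was not tested.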

How the results depend on the processing

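Outside the BAT contrast, 370 of 395 alternative values for single genes kept their direction and side of the threshold, and of 244 alternative counts 202 stayed within 1.5 times. In IAT the 10 genes gave 1 call (Axin2) with DESeq2 and with all 24 libraries in 1 fit, and 0 to 1 with single libraries left out. BMP genes in IAT gave 8 calls with DESeq2 and 11 with all 24 libraries, and 0 to 6 with single libraries left out. Wnt genes in IAT gave 7, 10 and 0 to 7. Of all genes in IAT, DESeq2 called 7.11%, and edgeR called 0% to 12.1% with single libraries left out. In BAT, whose contrast chose 3 of the 10 genes so that their calls are no test of them, these gave 1 call with limma-voom, 1 on log2(TPM + 1) and 1 on log2(TPM + 0.1), 0 on log2(TPM + 1) without a filter, and 0 to 2 with single libraries left out (0 without KO replicates 2 or 3 or WT replicates 2 or 3). BMP genes in BAT gave 1 call with DESeq2 and 0 to 1 with single libraries left out, as did Wnt genes in brain. In liver BMP genes gave 1 call without a filter, 2 with DESeq2, 1 with all 24 libraries and 0 to 1 with single libraries left out. Liver Wnt genes gave 0 with a filter of 1 CPM and on log2(TPM + 1) and log2(TPM + 0.1), 2 with DESeq2 and 0 to 1 with single libraries left out. The interaction gave 1 call (Sfrp1) with DESeq2. Of all genes, DESeq2 called 3.68% in BAT, 0.289% in brain and 2.79% in liver. With single libraries left out, edgeR called 0.0157% to 0.735% in BAT, 0.00687% to 0.0619% in brain and 0.467% to 0.823% in liver. No share of all genes was counted for the remaining alternatives, so nothing about the genes is read from their counts.

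With the replicate number as a block, 0 of the 10 genes were called in BAT, again no test of the chosen 3. Calls went to 2 BMP genes in liver (Gdf2 and Smoc2) and 2 Wnt genes in liver (Rspo1 and Tnfrsf19). The share of all genes was not counted for this fit. The numbers were not treated as pairs: deviations of same-numbered KO and WT libraries had a lowest correlation of −0.26 for IAT, −0.19 for BAT, 0.042 for brain and −0.083 for liver.

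Outside BAT, values that reversed sign were all uncalled, and the causes were not tested. In BAT, whose 144 alternative values carry no test, 10 changed sign, for Bmp4, Bmp8b, Bmpr1a, Bmpr2 and Sfrp1. With single libraries left out, values in IAT ran from −0.76 to 0.14 for Gdf5 (0.040 without KO replicate 1, 0.14 without WT replicate 1), −0.58 to 0.11 for Bmpr1a, −0.82 to 0.061 for Apcdd1 (both highest without KO replicate 1) and −0.46 to 0.43 for Dixdc1 (highest without WT replicate 1). In brain they ran from −0.10 to 0.20 for Bmp4 and −0.11 to 0.064 for Bmpr2 (0.0046 without WT replicate 2), and in liver from −0.42 to 0.36 for Bmp7. Without KO replicates 1 and 3 of IAT, Gdf5 was 0.29, Bmpr1a 0.37, Apcdd1 0.41 and Bmpr2 0.079. Without WT replicates 1 and 2 of IAT, Gdf5 was 0.12, Bmp4 0.16 and Dixdc1 0.47. On log2(TPM + 1), with or without a filter, Dixdc1 in IAT was 0.032 and Bmpr2 in liver −0.046, and on log2(TPM + 0.1) they were 0.050 and −0.054. Depth limits Gdf5 in brain, Bmp8b outside BAT and Apcdd1 in liver, which have few reads.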
